A study of Mus musculus with 2 samples.

Results

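C/D box snoRNAs were followed through the short fragments they left in a small RNA sequencing data set of mouse dendritic cells. The members are the mouse genes named Snord plus a number in the GENCODE vM21 annotation (GRCm38, also called mm10), each represented by the sequences that match it on the sense strand. Snord37 and every snoRNA inside the genes Hspa8 or Gas5 were left out, which removed 8 of the 99 Snord genes and kept 91. Of these 91 genes, 72 had at least 1 read and 48 had at least 50 reads over both libraries. They accounted for 2187 of the 538100 distinct sequences listed.

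Both libraries came from C57BL/6 bone marrow cultured into dendritic cells with GM-CSF and IL-4 over 7 days. Both carried the LPS treatment, so no unstimulated cells were compared. After swelling in an NP40 buffer, the cells were spun. RNA of the pellet with the nuclei gave the nuclear library, RNA of the supernatant fraction gave the cytoplasmic library, and there was 1 library of each. Neither the number of mice nor the LPS dose and time are given in the sources used here. The question of the series is which small RNAs are enriched in nuclei of innate immune cells. The nuclear library held 2000019 reads and the cytoplasmic library 2041383 reads of 18 to 39 nt. With 1 library in each group there is no replicate check and no p-value, and every difference below compares these 2 libraries. Intervals are exact 95% (Clopper-Pearson) intervals and cover counting error only, so differences between cultures or fractionations are not in them. PCR copies were not marked with molecular identifiers, so each copy counts as a separate read.

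C/D box snoRNAs are short RNAs of the nucleolus, most of them cut out of the introns of host genes. Box C lies near the 5′ end and box D near the 3′ end, and the ends pair so that both boxes form the fold on which the proteins 15.5K (Snu13), NOP56, NOP58 and the methylase fibrillarin assemble. The stretch upstream of box D, or of an internal copy called D′, pairs with a target RNA and sets the place of 2′-O-methylation, mostly in ribosomal RNA. A few members, such as U8 (Snord118) and U13 (Snord13), act in the processing or acetylation of ribosomal RNA and are transcribed from genes of their own. The reads here are 18 to 29 nt long, so they are fragments of these RNAs, and their level is not the level of the full-length snoRNA.

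The fragments shown here are of 3 kinds. Those of the first kind span box C and start a few bases before it. They are shown for the 7 genes with most nuclear reads other than Snord118, 5′ to 3′ with U written as T, and capitals mark box C, searched as TGATGA. Snord71 has no such match anywhere and is printed without capitals.
Snord43, nt 36 to 57: acaaaTGATGAaccttttgacg
Snord89, nt 4 to 27: gaggagTGATGAcataaaaggccg
Snord49a, nt 1 to 23: tgctgTGATGAgatgactaagta
Snord71, nt 6 to 29: gctggaggatgaagtaaggagtga
Snord82, nt 3 to 23: cacaagTGATGAgtgacaaag
Snord55, nt 2 to 24: gcggaTGATGAcacctgggtatg
Snord96a, nt 4 to 22: cctagTGATGAcaagacga
In this order they were read 3918, 2169, 423, 660, 460, 480 and 183 times in the nuclear library. Their cytoplasmic counts were 110, 13, 18, 15, 12, 10 and 6 reads, so each of the 7 was more frequent in the nuclear library.

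The second kind comes from the 3′ end and stops inside box D or a few bases past it. Box D was searched as the last CTGA of the gene, and its bases are in capitals. These fragments are shown because they were the most abundant nuclear sequences of these genes, or the next one for Snord118, and because their ends differ between genes.
Snord118, nt 111 to 132: aacatcctggttgctcctatCT
Snord118, nt 113 to 132: catcctggttgctcctatCT
Snord13, nt 82 to 104: gtgggcacattacccgtCTGAca
Snord50a, nt 50 to 67: cttacggatctggcttCT
Snord23, nt 89 to 109: attgcctggggaCTGAgggca
Snord22, nt 106 to 126: agaaggaactgtCTGAgggat
The first of these had 312 nuclear and 61 cytoplasmic reads and the second, which starts 2 bases later, 220 and 3 reads. Snord13 had 140 nuclear reads and no cytoplasmic read of the sequence shown, Snord50a 106 and 4, Snord23 81 and 2, and Snord22 34 and 3.

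The third kind comes from the inside of the snoRNA and holds neither the box C nor the box D found by these searches. The Snord35b sequence below does hold an earlier CTGA, printed in lower case because it is not the last in the gene. The 4 sequences below are shown because they had more cytoplasmic than nuclear reads, and they were chosen after their values were seen.
Snord96a, nt 45 to 66: agggaatgaggacatgtcctgc
Snord65, nt 35 to 57: cggcagattggtagtggtgagcc
Snord35a, nt 17 to 41: attctcacgatggtcttcggatgcc
Snord35b, nt 44 to 62: agggcactgctgagacagc
Their nuclear counts were 0, 1, 0 and 4 reads and their cytoplasmic counts 4, 5, 7 and 9 reads.

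Fragments of the 91 genes made up 1.76% of nuclear reads (35121 reads, interval 1.74 to 1.77%) and 0.0568% of cytoplasmic reads (1159 reads, interval 0.0536 to 0.0601%). The level, in RPM (reads scaled to the library total), was 17560 in the nuclear and 568 in the cytoplasmic library, a ratio of 30.9 (interval 29.2 to 32.8). All 48 genes with at least 50 reads were higher in the nuclear library, meaning a ratio of at least 2-fold with an interval above 1, and 0 were lower. Among all 992 small RNAs with at least 50 reads, 42.8% were higher and 11% lower by the same rule. These 992 are of every class, with the members among them, and include fragments of mRNAs, long non-coding RNAs and retained introns. The median log2 ratio of the 48 genes was 4.95, or 4.80 with genes lacking a cytoplasmic read placed at their lower bound, against 0.69 for all small RNAs measured. Among genes with a cytoplasmic read, the log2 ratios ran from 1.80 (Snord35b) to 7.29 (Snord111). In libraries of a fraction, more of an RNA in each nucleus and more nuclei that hold it cannot be told apart, nor can a snoRNA cut more often and a snoRNA that is more abundant.

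**Figure D1:**
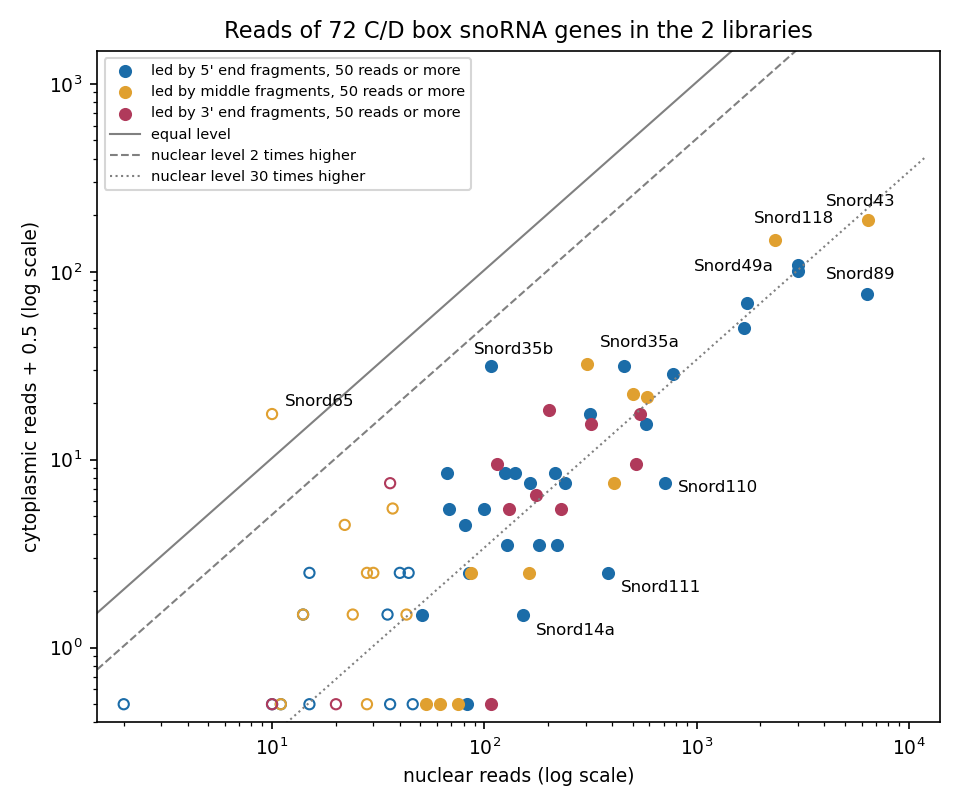
Nuclear reads (x axis, log scale) against cytoplasmic reads plus 0.5 (y axis, log scale) of the 72 snoRNA genes with a read, 1 point a gene, coloured by the place in the snoRNA that gave most nuclear reads; open points have under 50 reads. All filled points lie below the dashed line of a 2 times higher nuclear level, and Snord65 with 10 nuclear and 17 cytoplasmic reads is the single gene above the line of equal level. The interval of the Snord65 ratio, 0.246 to 1.39, includes 1.

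A few genes supplied most fragments. Snord43 and Snord89 together held 36.4% of the nuclear and the first 5 genes by nuclear reads 60.2% of the nuclear and 53.4% of the cytoplasmic member reads. Snord43 (chr15:80082847-80082954, an intron of the ribosomal protein gene Rpl3) guides methylation of 18S ribosomal RNA. It had 6409 nuclear and 187 cytoplasmic reads, a ratio of 35.0 (interval 30.2 to 40.7). Snord89 (chr1:39548745-39548854, inside Gm15832) had nearly as many nuclear reads, 6377, but 76 cytoplasmic reads, a ratio of 85.6 (interval 68.3 to 109). The intervals of these 2 genes do not overlap, so genes of equal nuclear level differed in cytoplasmic level by more than counting error.

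Snord49a (chr11:62603450-62603521, inside the non-coding host 2410006H16Rik), a guide for 28S ribosomal RNA, had 3012 nuclear and 108 cytoplasmic reads. Snord71 (chr8:109839295-109839379, in Ap1g1), a guide for 5.8S ribosomal RNA, had 3002 and 101 reads. Their ratios, 28.5 and 30.3, could not be told apart at this depth. Snord82 in the nucleolin gene Ncl had 1731 and 68 reads, Snord55 1665 and 50, and Snord96a in Rack1, a second guide for 5.8S ribosomal RNA, 779 and 28. These 3 ratios lay between 25.98 and 34.0, with overlapping intervals. Snord110, in the gene of the particle protein Nop56, and Snord2, in the translation factor gene Eif4a2, had 714 and 585 nuclear reads. Their cytoplasmic counts of 7 and 21 reads gave ratios of 104 (interval 50.3 to 260) and 28.4 (interval 18.4 to 46.3).

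The highest ratios belonged to genes with few cytoplasmic reads. Snord111 (in the splicing factor gene Sf3b3), a guide for 28S ribosomal RNA, had 383 nuclear and 2 cytoplasmic reads, a ratio of 195 with an interval from 53.7 to 1620. Snord14a in Rps13 had 152 and 1 reads. Across all members, a further 16 sequences with 125 nuclear and 3 cytoplasmic reads match a member and also a snoRNA that was left out. They are not counted among the members, and their split by gene is not given here. Snord50b, Snord42a, Snord38a, Snord69, Snord21 and Snord67 had between 51 and 516 nuclear and 1 to 9 cytoplasmic reads, with ratios from 52.1 to 82.7. Their intervals were wide and overlapped that of the summed members, and the highest of their lower bounds was 30.6, for Snord21.

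Measured genes without any cytoplasmic read were Snord93 (107 nuclear reads), Snord33 (83), Snord12 (75), Snord99 (62) and Snord91a (53). With a floor of 3 reads in place of 0 in the cytoplasmic library, their ratios were 36.4, 28.2, 25.5, 21.1 and 18.03. The intervals of these floor ratios began at 12.1, 9.33, 8.40, 6.89 and 5.84. The lower limits of the exact intervals, which use the count of 0 itself, were 29.1, 22.5, 20.2, 16.6 and 14.2. Without sequences shared with miRNA genes, Snord33 kept 28 and Snord93 20 nuclear reads, with lower limits of 7.25 and 5.04.

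The lowest ratios were 3.52 (interval 2.34 to 5.44) for Snord35b, 8.55 for Snord15a, 9.76 (interval 6.77 to 14.5) for Snord35a, 11.4 for Snord88c and 13.0 for Snord22. Snord35b had 107 nuclear and 31 cytoplasmic reads. Snord35a (chr7:45126346-45126435, in Rpl13a), its paralog, had 306 and 32. The intervals of both Snord35 genes lie wholly under the ratio of all members. With only the most abundant sequence of each gene counted they do not, as Snord35a then had 71 nuclear reads and no cytoplasmic read (lower limit 19.1) and Snord35b 25 and 2 (ratio 10.4, interval 3.18 to 111). Snord88c had 201 nuclear and 18 cytoplasmic reads, and 92 and 4 in sequences that match no other Snord gene. The ratio of the latter was 23.5, with an interval of 8.86 to 88.0 that includes 11.4. Whether its place among the lowest rests on shared sequences could not be told at this depth. Snord15a and Snord15b, paralogs in introns of Rps3, had 67 and 8, and 581 and 15 reads. The interval of Snord15a (4.10 to 20.6) and that of Snord15b (23.8 to 71.1) do not overlap either.

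Of the 5 snoRNAs listed for ribosomal RNA processing, 4 were annotated among the members and all 4 were higher in the nuclear library. Snord118 (chr11:69073427-69073561), the U8 RNA of 28S and 5.8S maturation, had 2339 nuclear and 147 cytoplasmic reads, a ratio of 16.2 (interval 13.7 to 19.3). Snord13 (chr8:31149864-31149967), the U13 RNA needed for an acetylation of 18S ribosomal RNA, had 543 and 17, a ratio of 32.6. Snord22 in Snhg1, the U22 RNA of 18S maturation, had 115 and 9, and Snord14a, of the U14 family that acts in 18S processing, is given above. Snord118, Snord13 and Snord104 have no annotated host, and their summed ratio was 18.2 (interval 15.6 to 21.4). The interval lies under that of the 22 genes in ribosomal protein hosts (ratio 29.9, interval 27.1 to 33.2). Without Snord118 the other 2 hostless genes had 674 nuclear and 22 cytoplasmic reads, a ratio of 31.3 (interval 20.5 to 50.2), so the difference rested on Snord118. Snord104 alone had 131 and 5 reads, a ratio of 26.7.

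The 4 snoRNAs in introns of Rpl13a, known from work on lipotoxic and oxidative stress, were all higher in the nuclear library (median log2 ratio 4.91). Snord32a had 239 nuclear and 7 cytoplasmic reads, Snord33 83 and 0, Snord34 175 and 6, and Snord35a 306 and 32. Although these 4 come from 1 primary transcript, Snord35a held 32 of their 45 cytoplasmic reads and 306 of their 803 nuclear reads.

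By host, the median log2 ratio was 5.05 for the 18 measured genes in ribosomal protein genes, 5.22 for 4 in Snhg genes, 5.23 for 3 in the nucleolar protein genes Ncl and Nop56, and 4.92 for 19 in other hosts. Genes of all these groups were higher without exception, and the ranges of the groups overlapped. The proteins of the snoRNA particle could not be compared, because fragments of their mRNAs (Fbl, Nop56, Nop58, Snu13 and 8 assembly or maturation factors) had at most 15 reads each and 0 of 12 reached 50 reads.

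The C/D box snoRNAs that the rule left out are the closest in kind to the members and were not compared separately. All snoRNA genes together, members included, had 187166 nuclear and 6090 cytoplasmic reads. Their ratio was 31.4 (interval 30.6 to 32.2), so a ratio of this size was not particular to the members. A second class is the 12 measured H/ACA snoRNAs (Snora genes), which guide pseudouridylation and have no C and D boxes. Of these 12, 11 were higher and 0 lower, and the median log2 ratio was 4.41. Their 4398 nuclear against 289 cytoplasmic reads gave a ratio of 15.5 (interval 13.8 to 17.6). That interval lies under the interval of the C/D members, a difference between summed reads of these 2 libraries.

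A fragment was assigned to the 5′ end when it began within 5 nt of the annotated start of the gene, to the 3′ end when it stopped within 5 nt of the annotated end, and otherwise to the middle. In the nuclear library 59.2% of member reads were 5′ fragments, 31.4% middle and 9.43% 3′ fragments. The cytoplasmic shares were 46.8% (interval 43.9 to 49.7%), 37.0% (34.2 to 39.9%) and 16.2% (14.1 to 18.5%). The nuclear over cytoplasmic ratio was thus 39.1 (interval 35.9 to 42.7) for 5′ fragments, 26.2 (23.8 to 29.0) for middle fragments and 17.98 (15.5 to 20.9) for 3′ fragments. These intervals do not overlap, but the low ratio of 3′ fragments rested on Snord118. Without it, 3′ fragments had 2156 nuclear and 80 cytoplasmic reads, a ratio of 27.5 (interval 22.002 to 34.8) that overlaps the ratio of middle fragments without it (25.8, interval 23.3 to 28.6). The 3′ shares were then 6.58% in the nuclear and 7.91% in the cytoplasmic library. Without Snord43 the nuclear middle share was 16.1% and the 5′ share 72.4%. Of the 5′ reads, Snord89 gave 6358 nuclear and 71 cytoplasmic, a ratio of 91.4 (interval 72.4 to 117). The 5′ ratio without Snord89 was not computed, so how far its height rests on this gene was not tested.

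In the nuclear library 28 of the 48 genes were led by the 5′ end, 11 by the middle and 9 by the 3′ end, and in 14, 5 and 1 of these at least 90% of reads came from the leading place. Snord73a (215 of 215 nuclear reads), Snord89 (99.7%) and Snord82 (99.6%) were the most one-sided 5′ genes. Snord69 and Snord91a gave middle fragments in all of their 408 and 53 nuclear reads, and Snord43 in 6408 of 6409. Snord23 (95.6%), Snord22 (78.3%) and Snord88c (73.1%) were the genes with the largest 3′ share.

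Of the 13 genes with at least 20 cytoplasmic reads, 7 were led there by the 5′ end, 5 by the middle and 1 by the 3′ end, and 11 had the same leading place in both libraries. Snord118 was led by the middle in the nuclear library (1184 middle and 1155 3′ reads, a share of 50.6% with an interval of 48.6 to 52.7%) and by the 3′ end in the cytoplasmic library (39 and 108 reads). Snord35b was led by the 5′ end in the nuclear library (51 reads against 49 from the middle) and by the middle in the cytoplasmic library (6 against 25). In both genes the nuclear lead was within counting error.

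**Figure D2:**
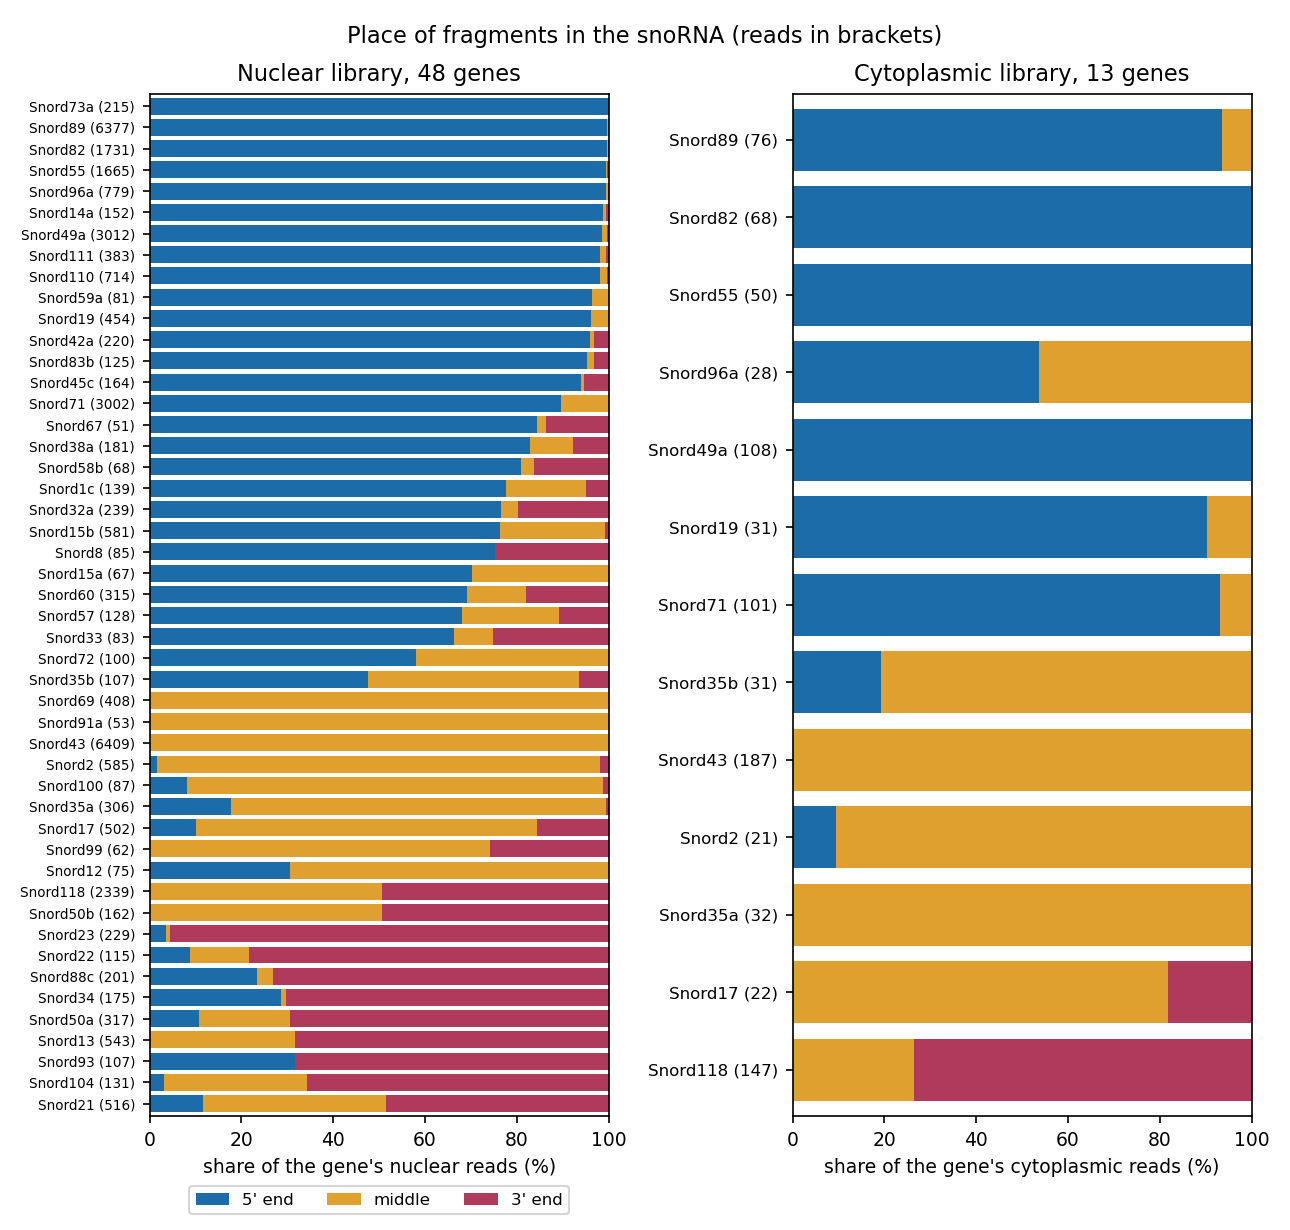
Share of each gene's reads (x axis, %) from the 5′ end, middle and 3′ end of the annotated snoRNA, for 48 genes in the nuclear library (left) and the 13 genes with at least 20 cytoplasmic reads (right), with reads in brackets. Bars are grouped by the leading place in the nuclear library: 28 genes are led by the 5′ end, 11 by the middle and 9 by the 3′ end.

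The annotated ends are not always the ends of the snoRNA core. GENCODE types Snord43 as a miRNA gene of 108 nt, and its box C begins at nt 41, so the main fragment counted as middle although it starts 5 nt before box C. Whole Snord43 is printed to show this, with box C and box D in capitals.
Snord43, nt 1 to 108: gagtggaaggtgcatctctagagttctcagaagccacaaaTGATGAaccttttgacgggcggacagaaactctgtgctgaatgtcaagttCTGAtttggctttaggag
For Snord69 box C begins at nt 13, and the common start, nt 7, lay 6 nt before it and 1 nt outside the limit for a 5′ fragment.

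Box C was therefore used as a second reference. TGATGA was found in the first 20 nt of 63 of the 91 genes and 30 of the 48 measured genes, against 0.6999% of all 141733 GENCODE transcripts and 0 of 42 Snora genes. CTGA was found in the last 20 nt of 89 of the 91 genes and all 48 measured genes, against 9.24% of all transcripts and 5 of 42 Snora genes. Only the given strand of each transcript was searched, and the motifs can overlap, as in CTGATGA. Genes without a match may have another form of the box, as the ggatga in the Snord71 fragment above.

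For the places of reads, the first TGATGA anywhere in the gene was used, found in 49 genes with reads. Snord43 (nt 41) and Snord118 (nt 53) are among them. In these genes, 84.4% of nuclear (24609 of 29156) and 70.6% of cytoplasmic reads (613 of 868, interval 67.5 to 73.6%) began 4 to 6 nt before box C. The most frequent distances were 5 nt, with 43.3% of nuclear and 45.5% of cytoplasmic reads, and 6 nt, with 40.7% and 25.1%. These shares weigh genes by their reads. Snord89 alone gave 6058 of the 11874 nuclear and 68 of the 218 cytoplasmic reads at 6 nt. At 5 nt, Snord43 gave 4741 of 12621 and 128 of 395. Among 20 genes whose most abundant sequence was a 5′ fragment and that had the motif, the sequence started 4 to 6 nt before box C in 18. Since 5′ fragments begin within 5 nt of the gene start by rule, and box C mostly lies near it, the rule partly sets this count. Box C was inside 85.3% of the nuclear and 71.4% of the cytoplasmic reads of the 49 genes. In the 47 genes with both motifs, 8.86% of nuclear and 21.6% of cytoplasmic reads (interval 18.9 to 24.5%) held neither located box in full. Snord118 reads that stopped inside box D, 756 nuclear and 69 cytoplasmic, are among these 2581 and 187 reads. The shares without Snord118 were not computed.

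At the other end, 6.48% of nuclear and 8.12% of cytoplasmic reads held all of box D. The most frequent stop near box D was 2 nt before its last base, between CT and GA of the motif, with 1283 nuclear and 80 cytoplasmic reads over 25 genes. Snord118 held 756 and 69 of them, and for Snord50a (157 and 7 reads) this stop took 49.5% of its nuclear reads. Without Snord118 the order changed: 527 nuclear and 11 cytoplasmic reads had this stop, against 664 and 15 that stopped 2 nt past box D and 615 and 26 that stopped 5 nt past it. Other genes with at least 20 nuclear reads at this stop were Snord15b, Snord17, Snord50b, Snord104 and Snord70. Snord13 and Snord23, by contrast, stopped at the last annotated base in 93.5% and 92.7% of nuclear 3′ reads.

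**Figure D3:**
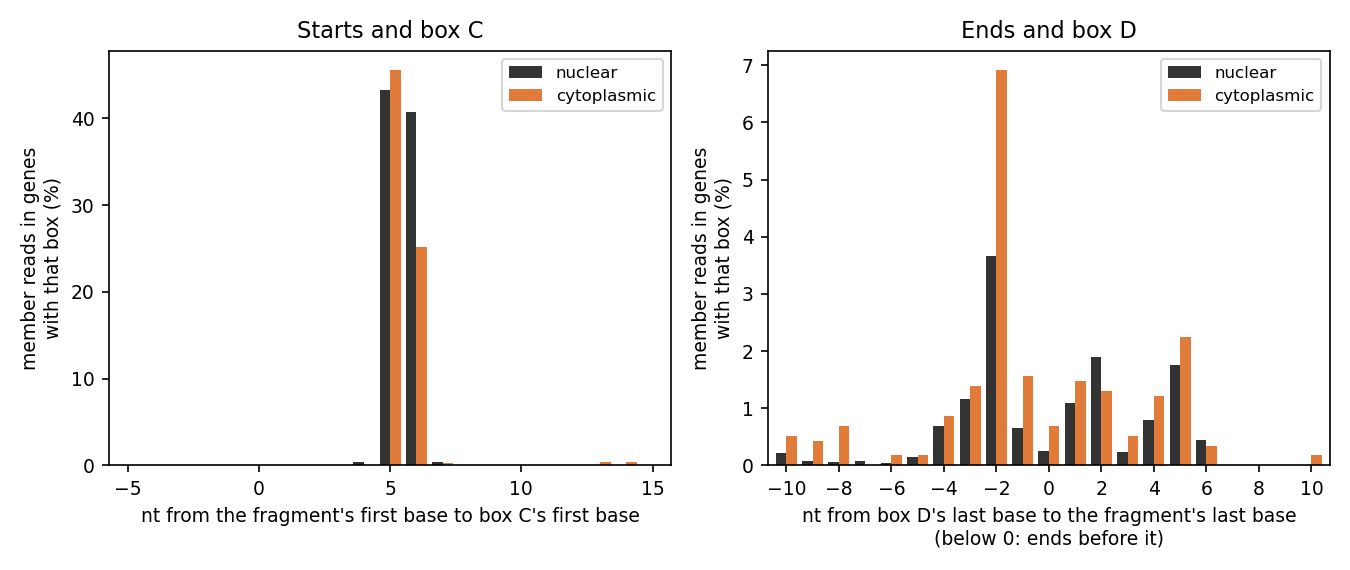
Left, distance in nt from the first base of a read to the first base of box C; right, from the last base of box D to the last base of a read; the y axis is the share (%) of member reads in genes with that box, with the nuclear library in black and the cytoplasmic library in orange. Starts pile up at 5 and 6 nt before box C, and the tallest bar near box D is the stop 2 nt before its last base, where Snord118 gave 756 of 1283 nuclear reads.

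How fixed the ends of fragments were was described by place. The rule for 5′ and 3′ fragments confines the outer end to a few bases and leaves the inner end free, so the first 2 of the following comparisons are descriptions only. Among 38 genes with at least 30 nuclear 5′ reads, a median of 81.6% of reads shared the commonest start and 32.2% the commonest stop, and the start was the more fixed end in 37. For 3′ fragments (14 genes) the values were 44.6% at the commonest start and 64.4% at the commonest stop, and the start was more fixed in 2. Middle fragments (21 genes), whose ends the rule does not confine in this way, had 62.0% and 50.4%, with the start more fixed in 10. In Snord49a 99.7% of its 2971 nuclear 5′ reads began at nt 1 while the commonest stop took 14.4%. In the middle fragments of Snord43 both ends were fixed, as 74.0% of 6408 nuclear reads began at nt 36 and 82.4% stopped at nt 57.

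The median length of member reads was 22 nt in both libraries, the median of the miRNA class as well. Nuclear 5′, middle and 3′ fragments had medians of 23, 22 and 21 nt, and cytoplasmic ones 23, 22 and 22 nt. The spread was wider than for miRNAs: 21.9% of nuclear member reads had the commonest length of 22 nt, against 47.3% of nuclear miRNA reads. Lengths of 26 nt or more were found for 6.07% of nuclear and 8.46% of cytoplasmic member reads, against 0.237% and 0.420% of miRNA reads. Among the genes named by their reads or ratios, the nuclear median ran from 18 nt in Snord42a to 25 nt in Snord2.

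G was the commonest first base of exactly matching nuclear reads (37.6%) and A of cytoplasmic reads (39.7%), while G was the commonest last base in both (45.7% and 43.2%). A few starts weigh heavily in these shares. With all matches counted, nt 4 of Snord89, a G, began 6058 nuclear and 68 cytoplasmic reads. An A began 4741 and 128 reads at nt 36 of Snord43, and 431 and 95 at nt 111 of Snord118. Shares with each gene weighed alike were not computed. Reads that matched only once 1 to 3 of their last bases were taken off numbered 919 in the nuclear library (2.62% of member reads) and 65 in the cytoplasmic library (5.61%). Inside the genes, a single added A was the commonest such tail, with 287 nuclear and 32 cytoplasmic reads.

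Reads were then grouped by gene and first base. The 33 starts with at least 5 cytoplasmic reads were compared, a limit that leaves out starts rare in the cytoplasm and was chosen after the values were seen. At 29 of the 33 the ratio was above 1, with an interval that reached below 1 for nt 19 of Snord35a (15 nuclear and 6 cytoplasmic reads). The other 4 lay in Snord96a, Snord65, Snord35a and Snord35b, all inside the snoRNA. Since they were picked for their cytoplasmic reads, their values are descriptions and support no direction.

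Snord96a gave both kinds of fragment. Its 5′ fragments had 774 nuclear and 15 cytoplasmic reads, a ratio of 52.7 (interval 31.7 to 94.6), and its middle fragments 3 and 13, a ratio of 0.236. The 10 cytoplasmic reads that began at nt 45 were 5 sequences of 18 to 24 nt, and the nuclear library had 0 reads with this start. Middle fragments thus made up 46.4% of cytoplasmic and 0.385% of nuclear reads of the gene.

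Snord65 (chr11:62604515-62604586), which shares its host with Snord49a, had fewer than 50 reads. Its reads that began at nt 35 numbered 3 in the nuclear and 15 in the cytoplasmic library, a ratio of 0.204. Snord35b reads that began at nt 44 numbered 21 and 24, a ratio of 0.893 (interval 0.473 to 1.67), whereas its 5′ fragments had 51 and 6. Snord35a reads that began at nt 17 numbered 12 and 16, while its 5′ fragments had 54 nuclear and no cytoplasmic reads. For these last 2 starts the interval includes 1, so a direction was not detectable at this depth.

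Snord118 differed between starts 2 nt apart. Reads that began at nt 111 numbered 431 in the nuclear and 95 in the cytoplasmic library, a ratio of 4.63 (interval 3.70 to 5.85). Reads that began at nt 113 numbered 366 and 6, a ratio of 62.3 (interval 28.3 to 171). Reads that began at nt 47 or 48, which span its box C, had ratios of 32.5 and 27.4. The whole RNA is printed to place them, with box C and box D in capitals.
Snord118, nt 1 to 135: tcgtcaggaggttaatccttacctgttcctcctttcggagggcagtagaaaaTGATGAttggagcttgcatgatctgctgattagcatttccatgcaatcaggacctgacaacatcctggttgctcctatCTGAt
The nt 111 start alone held 95 of the 147 cytoplasmic Snord118 reads. By start, Snord43 (nt 36: 37.8, nt 35: 28.3) and Snord71 (nt 6: 29.1, nt 7: 42.1) did not differ beyond counting error.

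**Figure D4:**
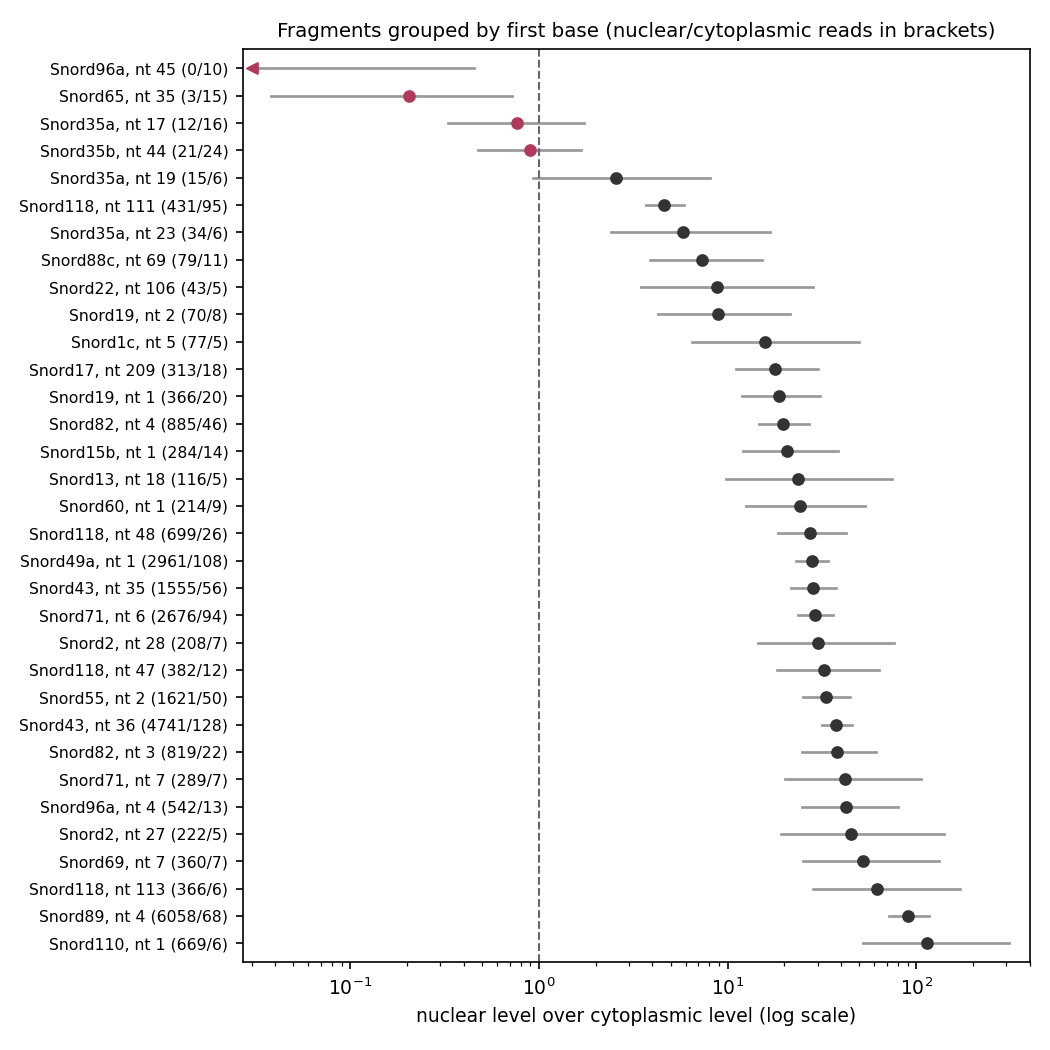
Nuclear level over cytoplasmic level (x axis, log scale) of the 33 groups of reads that share a gene and a first base and have at least 5 cytoplasmic reads; points are ratios, lines exact 95% intervals, and the arrow marks a start with no nuclear read. The 4 red points below 1, shown as a description, are inner starts of Snord96a, Snord65, Snord35a and Snord35b, and the 2 starts of Snord118 at nt 111 and nt 113 lie at 4.63 and 62.3.

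**Figure D5:**
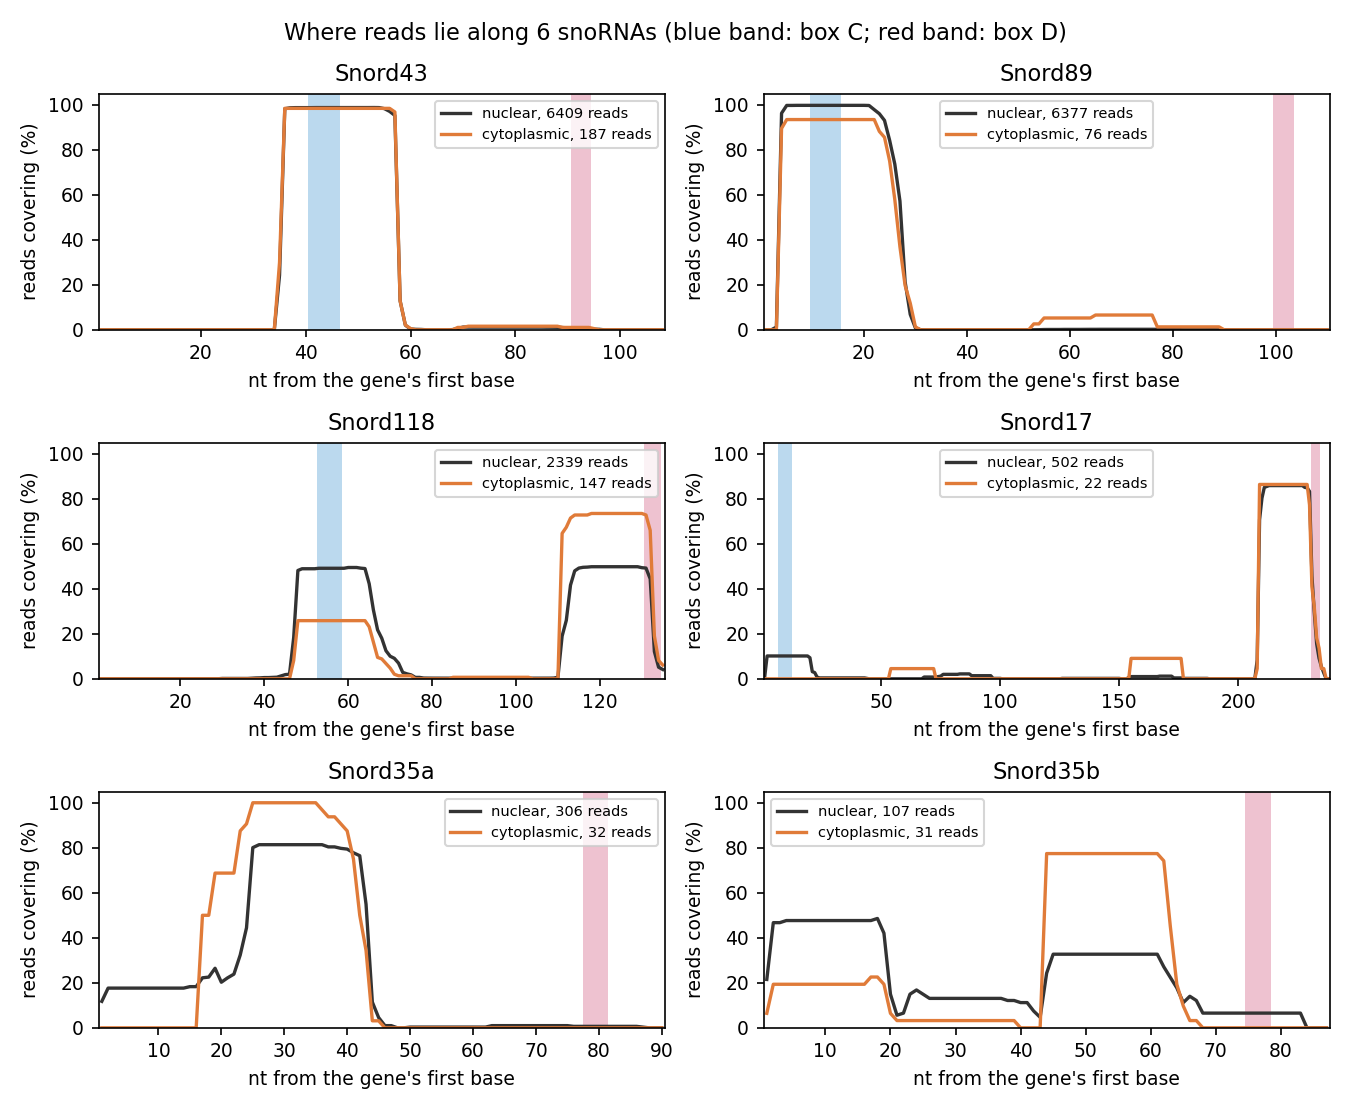
Share of a gene's reads that cover each base (y axis, %) along 6 snoRNAs (x axis, nt from the annotated first base) in the nuclear (black) and cytoplasmic (orange) library, with box C in blue and box D in red where the motif was found. Snord43 and Snord89 are covered around box C in both libraries, whereas the cytoplasmic reads of Snord118 lie more at the 3′ end and those of Snord35b more in the middle than the nuclear reads do.

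Genes with 1 to 49 reads numbered 24 and summed to 581 nuclear and 48 cytoplasmic reads. Of these, 10 had no cytoplasmic read, and only Snord65 had more cytoplasmic than nuclear reads. The 19 genes without a read in either library were 17 Snord116 copies, Snord64 and Snord107, all of them in the imprinted locus whose snoRNAs are known mainly from brain. No listed sequence matched any of these 19 genes, and the limit on sequences of many genes was not applied to snoRNAs. A count of 0 allows up to 3 reads in each library.

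Some reads could belong to other copies. All Snord1c reads, all Snord50a reads and all Snord50b reads also match unnamed snoRNA copies (Gm genes), 42 sequences with 295 nuclear reads match more than 1 Snord gene, the overlapping miRNA gene Mir5121 shares 55 nuclear reads with Snord33, and Mir3096, a copy elsewhere on chromosome 5, shares 87 with Snord93. The members' sequences read backwards matched 0 reads.

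As a check of the labels, the nuclear RNAs Malat1, Neat1, Rnu6 and Rnu7 were 6.02-, 15.2-, 9.23- and 21.9-fold higher in the nuclear library, and mitochondrial tRNAs were lower (ratio 0.354, 9 of 16 lower and 1 higher). The myeloid miRNAs miR-223-3p, miR-142 (both arms) and miR-155-5p were present in both libraries. Of 6 miRNAs that mark other cell types, miR-122-5p of hepatocytes (287 nuclear and 24 cytoplasmic reads) and miR-1a-3p of muscle (108 and 7) were higher in the nuclear library with the members. The erythroid miR-451a had 0 and 2 reads and the endothelial miR-126a-3p 3 and 1, while neuronal miR-124 had 21 and 25 and epithelial miR-200c-3p 75 and 135. The part of such RNA in the snoRNA ratios was not tested.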

How the data were processed

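Small RNAs of 1 nuclear and 1 cytoplasmic fraction were measured. The authors deposited a table of distinct sequences with a value in RPM for each library; CASAVA and the build mm10 are named per the submitters' processing notes, while trimming, alignment and filters are not stated in the sources used here. Columns were taken as nuclear or cytoplasmic on the last letter of their names. All values above 0 (100%) were whole multiples of 1 read within 0.1 read, 0.499995 RPM for a nuclear and 0.489864 RPM for a cytoplasmic read, and reads were recovered from this. A count test (edgeR 4.0.16) on these reads could not be fitted, with 0 residual degrees of freedom, so it made no calls and gave no p-values.

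Sequences were matched over their full length to GENCODE vM21 transcripts on the sense strand, and those unmatched were tried again without their last 1 to 3 bases, keeping 18 nt or more. A sequence of several Snord genes counted once, at the gene with most reads. Ratios are of RPM; log2 ratios used a pseudocount of 0.5 reads, which understates the ratios of genes with few reads. Python 3.11.15, SciPy 1.17.1 and R 4.3.3 were used. Matching and intervals were tested on simulated data. Alternatives covered the scaling, the sequences counted, the minimum of reads, the limits of positions and the pseudocount. Genes named were those of at least 50 reads with most reads in either library, the 10 largest and 5 smallest ratios, the largest share for each place, a leading place that differed, and the lists of ribosomal RNA processing and Rpl13a snoRNAs; others, such as Snord17, Snord50a and Snord65, were chosen after their values were seen. The members and lists were chosen with earlier results of these data known.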

Additional observations from a re-analysis of the deposited data

How the results depend on the processing

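With 48 of 48 genes higher and 0 lower at the library-total scale, no alternative called a gene lower (62 of 63 genes were higher with a minimum of 20 reads and 70 of 72 with none), and none of the 247 ratios of the 31 named genes recomputed under alternatives fell below 1 (lowest 2.18, Snord35b, median of ratios). The summed ratio (30.9) was 21.2 with TMM factors, 19.4 with median of ratios, 57.6 on the miRNA total, 37.1 with the most abundant sequence of each gene, 26.4 without the 5 members with most nuclear reads and 33.1 without Snord118. The median log2 ratio (4.95) was 4.41, 4.28 and 5.85 under these 3 scalings, which shift all small RNAs by -0.54, -0.67 and 0.90, so that the members stay 4.26 above the median of all. It was 5.403 with the most abundant sequence, 4.80, 4.81 and 4.69 with a minimum of 20, 100 or no reads, and 4.10 with a pseudocount of 5 reads. With the most abundant sequence alone, 26 genes were measured and all were higher; 14, 7 and 5 of them were led by the 5′ end, middle and 3′ end in the nuclear library, and 0 and 1 by the 5′ end and middle in the cytoplasmic one.

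Shares by place moved most. In the order 5′ end, middle and 3′ end, nuclear shares were 50.3, 41.9 and 7.81% with the most abundant sequence, 49.2, 43.3 and 7.59% at a distance of 3 nt, 61.3, 26.2 and 12.5% at 10 nt, 61.9, 24.97 and 13.1% with each gene cut into 3 equal stretches, and 68.6, 9.86 and 4.12% as medians over genes. Cytoplasmic shares were 33.4, 41.6 and 25%, then 37.4, 49.01 and 13.5%, then 48.3, 32.8 and 18.9%, then 51.1, 28.3 and 20.6%, and 53.6, 26.5 and 0%. In alternatives added after seeing the data, nuclear shares were 72.4, 16.1 and 11.5% without Snord43, 63.4, 30.04 and 6.58% without Snord118, 85.2, 1.66 and 13.2% with places taken from box C and box D in genes that have both, and 58.5, 30.6 and 10.97% with 970 nuclear reads that run past an annotated end added. Cytoplasmic shares in the first 3 of these were 55.8, 24.9 and 19.3%, then 53.6, 38.5 and 7.91%, then 70.9, 7.96 and 21.1%. Sequences of a single Snord gene gave a nuclear 3′ share of 9.08%, and sequences of no gene other than the host gave 60.2% and 8.21% for the nuclear 5′ and 3′ ends. Genes led by the middle in the nuclear library (11) numbered 19, 7 and 21 with a minimum of 20, 100 or no reads, and 19, 6 and 5 with 3 nt, 10 nt and equal stretches. With equal stretches 14 genes were led by the 3′ end, with 3 and 2 led by the middle and 3′ end in the cytoplasmic library, where 10 nt also gave 2. The cause of these moves was not tested, beyond the change of the limits themselves.

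No paired analysis was possible because each group has 1 library. With 1159 cytoplasmic reads, depth limits the cytoplasmic values: 35 of 48 genes had under 20 reads there, and places or ends of single genes rest on few reads.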
